A study of Mus musculus with 8 samples.

Results

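DnaJ co-chaperones were examined in RAW264.7 cells, a macrophage line from the Balb/c strain, 24 h after transfection with small interfering RNA (siRNA) specific for Ypel5 or with a scrambled siRNA. Every gene name in the deposited non-normalized table that began with Dnaja, Dnajb or Dnajc and a number was taken. This gave 37 genes of 18136 named in the table, 3 of the Dnaja, 11 of the Dnajb and 23 of the Dnajc class, read by 55 of the 25697 probes. Each gene was represented by the probe with the highest mean intensity over all 8 arrays, so the probes were chosen by these intensities, which are given only as description. For Dnajb6, whose probes were closest in brightness among genes with several well detected probes, the means were 1764 for the probe used and 1333 for the next. The Ypel5 siRNA group and the scrambled group had 4 bead arrays each, and both received a lipid transfection reagent and the same serum-containing medium. A single siRNA sequence was used against Ypel5. The labels do not say that the arrays of a group came from separate cultures, and the source names repeat a replicate number on 3 of the 4 arrays of each group, so a p-value here covers no more than the variation among these arrays, and that may be technical.

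DnaJ proteins, also called HSP40 proteins, carry a J domain that stimulates the ATPase activity of HSP70 chaperones and so lets them hold on to a client protein. Members of the Dnaja class also have a glycine- and phenylalanine-rich stretch and a zinc-binding region, members of the Dnajb class the glycine- and phenylalanine-rich stretch alone, and members of the Dnajc class share only the J domain and otherwise differ widely. They serve HSP70 proteins in the cytosol, the endoplasmic reticulum (ER) and mitochondria, and some are induced by heat shock factor or by the unfolded protein response of the ER.

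Among the members with a promoter found, Dnajb6 alone held the exact heat shock element of 3 units spelled below. Its promoter and those of the 3 genes that passed the test below are shown first because they differ in the stress elements they hold. They come from RefSeq (GRCm38.p6), run 5′ to 3′ on the strand of the gene from 250 bases before to 50 bases after an annotated start, and have in capitals the motifs found.
Dnajb1 (chr8:83607925-83608224, + strand): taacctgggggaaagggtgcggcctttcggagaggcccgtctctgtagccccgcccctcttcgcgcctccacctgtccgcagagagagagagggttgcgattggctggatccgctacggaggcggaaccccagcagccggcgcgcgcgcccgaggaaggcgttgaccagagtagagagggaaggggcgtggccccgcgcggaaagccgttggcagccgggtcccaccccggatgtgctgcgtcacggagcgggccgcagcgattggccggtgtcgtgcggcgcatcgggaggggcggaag
Dnajc27 (chr12:4082324-4082623, + strand): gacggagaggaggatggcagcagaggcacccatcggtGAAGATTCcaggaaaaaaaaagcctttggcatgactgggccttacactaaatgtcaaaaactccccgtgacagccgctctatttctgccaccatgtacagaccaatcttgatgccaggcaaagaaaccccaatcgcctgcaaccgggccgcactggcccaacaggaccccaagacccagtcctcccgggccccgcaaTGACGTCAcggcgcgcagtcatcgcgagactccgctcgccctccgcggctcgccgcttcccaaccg
Dnajc3 (chr14:118937682-118937981, + strand): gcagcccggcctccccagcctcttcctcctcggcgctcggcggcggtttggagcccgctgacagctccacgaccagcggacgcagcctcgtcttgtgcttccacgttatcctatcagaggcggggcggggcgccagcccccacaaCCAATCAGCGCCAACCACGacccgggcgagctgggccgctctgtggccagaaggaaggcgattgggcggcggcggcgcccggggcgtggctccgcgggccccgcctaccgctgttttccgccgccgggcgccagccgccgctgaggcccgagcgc
Dnajb6 (chr5:29735648-29735947, + strand): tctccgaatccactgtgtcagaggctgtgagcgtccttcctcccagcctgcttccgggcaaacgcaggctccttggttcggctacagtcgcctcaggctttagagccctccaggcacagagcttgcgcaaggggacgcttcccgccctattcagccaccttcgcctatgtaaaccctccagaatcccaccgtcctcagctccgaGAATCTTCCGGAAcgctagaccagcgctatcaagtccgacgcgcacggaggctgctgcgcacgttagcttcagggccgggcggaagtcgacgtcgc
RefSeq promoters were matched by symbol for 30 of the 37 genes, with 42 annotated starts, and motifs were searched on both strands. The ER stress response element, spelled CCAAT, any 9 bases and CCACG, was present in Dnajc3 alone among them, beginning 105 bases before the start, and in 0.119% of all 32851 promoters. The heat shock element of 3 units, spelled GAA, any 2 bases, TTC, any 2 bases and GAA, was present in Dnajb6 alone, 46 bases before the start shown, and in 0.603% of all promoters. The shorter forms GAANNTTC and TTCNNGAA lie within it and were present in 4 and 3 of the 30 matched genes, against 9.04% and 9.60% of all genes with a promoter in the table. In Dnajc27 the capitals mark GAANNTTC, 213 bases before the start, and the cyclic AMP response element TGACGTCA, 16 bases before the start, which 1.79% of all promoters held. The CCAAT box, part of the ER element and not capitalised on its own, was present in 14 of the 30 genes, Dnajb1 among them, against 41.1% of all genes. None of the other elements was found in the window of Dnajb1 shown or in that of its other annotated start, which says nothing about sites outside them or about sites with another spelling.

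Between 11249 and 11612 probes were detected per array (detection p under 0.05), and precision is limited by there being 4 arrays a group. Of the macrophage marker names searched, 10 of 11 were detected on all 8 arrays, with Itgam on 1, while at least 4 arrays detected 1 of 5 T cell markers (Lck), 0 of 3 B cell, 0 of 5 fibroblast, 1 of 3 epithelial (Cdh1) and 0 of 4 endothelial markers. Ypel5 itself was read by 1 probe that was detected on 0 of 4 arrays in the Ypel5 siRNA group and 0 of 4 in the scrambled group. Its log2 reading was 4.79 ± 0.10 with Ypel5 siRNA and 4.70 ± 0.095 with scrambled siRNA (SD, n = 4 each), and an exact permutation test, two-sided, gave p = 0.257. No fold is given for a probe at background, so the arrays do not show whether or how far Ypel5 mRNA was lowered, and each direction below compares libraries by their labels, Ypel5 siRNA against scrambled. The median intensity of an array was 209.5 ± 14.6 with Ypel5 siRNA and 189 ± 6.26 with scrambled siRNA (SD, n = 4 each). A two-sided exact permutation test gave p = 0.0857, and the smallest p it allows is 0.0286. That gap moves with the groups, and its part in the differences below was not tested. In RNA from whole cultures, fewer cells of a kind and less RNA per cell cannot be told apart. Unless stated otherwise, values below are log2 intensities after background correction and quantile normalization.

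Of the 37 DnaJ genes, 26 passed the detection filter, for which 4 or more of the 8 arrays had to have a detection p under 0.05. In limma's test over 8257 genes with Benjamini-Hochberg adjustment, Dnajb1 rose after the Ypel5 siRNA, Dnajc27 and Dnajc3 fell, and 23 did not pass an adjusted p of 0.05. That is 1 higher (2.88% of all genes tested were) and 2 lower (1.95% of all genes), or 11.5% of the 26 against 4.83% of all genes. The differences were small, and none of the 26 reached 2-fold. Without background correction, 12 of the 26 differences moved by over 1.5 times, all of them toward 0. At an unadjusted p under 0.05 there were 10 of 26, against 21.5% of all genes. The 4 arrays of one group lay wholly outside the range of the other for 11 of 26 genes, against 15.2% of all genes. In 4 of these the Ypel5 siRNA arrays were higher (7.88% of all genes) and in 7 lower (7.32% of all genes). Dnajb13 was among these 7, and also among the 10 with an unadjusted p under 0.05. It was detected on 2 of 4 Ypel5 siRNA and 4 of 4 scrambled arrays, so it passed the filter through the scrambled group. With a common median per array in place of quantile normalization, 0 of the 26 passed in either direction, while the share of higher calls among all called genes was 87.3% in place of 59.6%. The median change of all genes was then log2 0.04 in place of 0.001.

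The classes leaned differently in sign. Over the genes that passed the filter, 2 of 2 of the Dnaja class and 5 of 7 of the Dnajb class were above 0, against 4 of 17 of the Dnajc class, where 4150 of 8257 genes tested were above 0. The median difference was log2 0.08 for Dnaja, log2 0.11 for Dnajb and log2 -0.08 for Dnajc, and log2 -0.02 over all 26. These counts and medians include Dnajb13 and Dnajc14, both below 0, which passed the filter through the scrambled group. With detection on all 8 arrays, 4 of 5 Dnajb and 4 of 15 Dnajc genes were above 0. With a common median per array the Dnajc median was log2 0.0013, with 9 of 17 above 0. Under that scaling the median of all genes was itself log2 0.037, so 0 was not their level. The Dnajc median lay below that of all genes, and the Dnaja (log2 0.12) and Dnajb (log2 0.19) medians lay above it. The Dnaja and Dnajb medians were above 0 under each of the 22 alternatives tried. The Dnaja median rests on 2 genes, of which Dnaja2 changed sign in 4 alternatives. The Dnajb median was lowest without a detection filter, at log2 0.01. The difference between the classes was not tested.

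**Figure D1:**
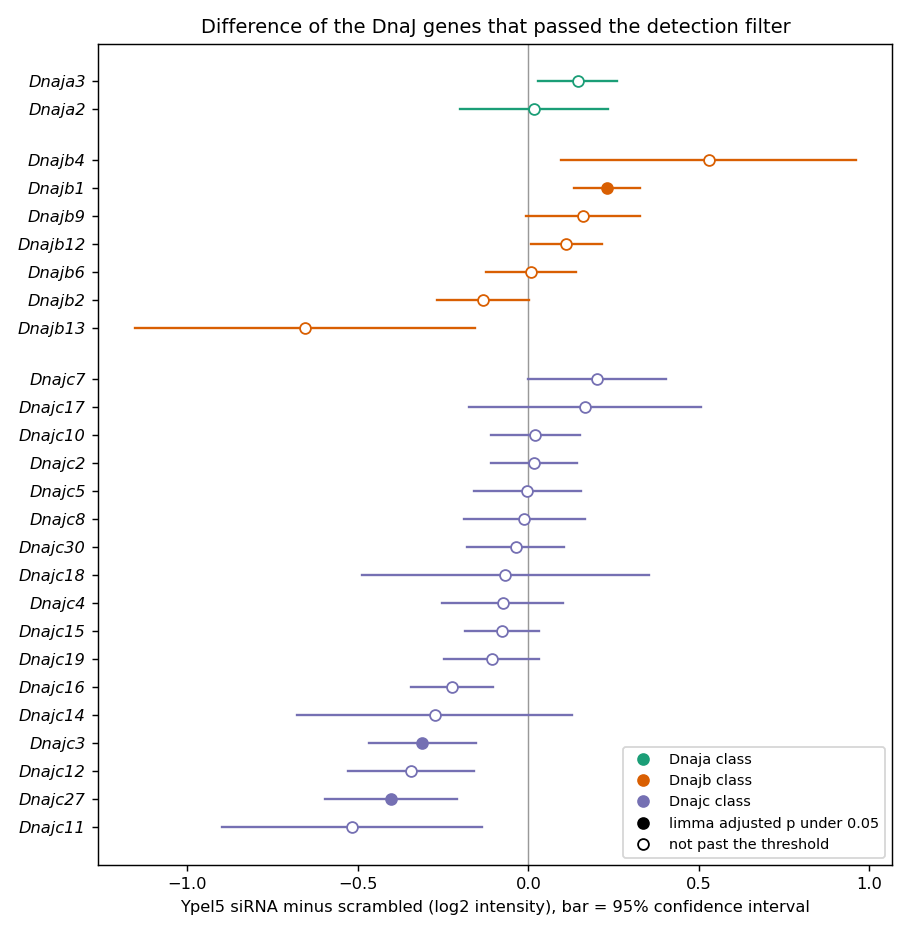
Difference between the Ypel5 siRNA and the scrambled group (log2 intensity, x axis) for each of the 26 DnaJ genes that passed the detection filter, by class, with 95% confidence intervals. Filled points passed a limma adjusted p of 0.05: Dnajb1 lies at 0.23, Dnajc3 at -0.31 and Dnajc27 at -0.40, while the widest intervals belong to dim probes such as that of Dnajb13.

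Dnajb1, the stress-inducible cytosolic partner of HSP70 and the archetype of its class, was higher on every Ypel5 siRNA array. Its deposited intensity was 4748, 3915, 3742 and 4356 with Ypel5 siRNA, against 3316, 3210, 2951 and 3148 with scrambled siRNA (replicates 1 to 4), without overlap. Before normalization the Ypel5 siRNA arrays were brighter on average (median intensity 209.5 against 189). Dnajb6, at log2 0.01 after normalization, also had groups that did not overlap before it. The separation of the deposited intensities therefore does not set Dnajb1 apart. The log2 values of Dnajb1 were 11.87, 11.84, 11.91 and 11.90 with Ypel5 siRNA, against 11.68, 11.62, 11.67 and 11.64 with scrambled siRNA. The group means were 11.88 ± 0.031 with Ypel5 siRNA and 11.65 ± 0.028 with scrambled siRNA (SD, n = 4 each), a 1.17-fold rise (log2 0.23, SE 0.042, limma adjusted p = 0.0222). The size stayed between log2 0.22 and 0.25 under the 22 alternatives, but the call was kept in 11 of them. Of the 8 that left out 1 array it was kept without scrambled replicate 1 or Ypel5 siRNA replicate 2 and lost without any other (limma adjusted p between 0.0485 and 0.0650).

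Among the other cytosolic and nuclear members none passed the test, and 7 of the 10 in this location were above 0, against 4150 of 8257 genes tested. Of the 7, Dnajb6, Dnaja2 and Dnajc2 were no further from 0 than log2 0.02. The count was 4 of 10 without scrambled replicate 1 and 8 of 10 with a common median per array. Dnajc7 joins HSP70 to HSP90 through its tetratricopeptide repeats. It read 11.95, 11.92, 11.83 and 11.64 with Ypel5 siRNA, against 11.73, 11.72, 11.64 and 11.45 with scrambled siRNA (log2 0.20, SE 0.088, limma adjusted p = 0.237). The groups overlapped through replicate 4 of the Ypel5 siRNA group, which lay at the level of scrambled replicate 3. Dnajb4, a close relative of Dnajb1, read 6.39, 6.40, 5.70 and 6.27 with Ypel5 siRNA, against 5.91, 5.24, 5.75 and 5.75 with scrambled siRNA (log2 0.53, SE 0.19, limma adjusted p = 0.156). Its probe was dim, detected on 4 of 4 Ypel5 siRNA and 3 of 4 scrambled arrays, and replicate 3 of the Ypel5 siRNA group lay within the scrambled range. Without background correction its difference was log2 0.15. Dnajb2, which carries ubiquitin-interacting motifs, read 7.71, 7.70, 7.51 and 7.62 with Ypel5 siRNA, against 7.69, 7.77, 7.79 and 7.81 with scrambled siRNA (log2 -0.13, SE 0.059, limma adjusted p = 0.242), with replicates 1 and 2 of the Ypel5 siRNA group inside the scrambled range and a difference of log2 -0.07 without background correction.

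Dnajb13, known from the axoneme of sperm, read 5.55, 5.44, 5.57 and 5.80 with Ypel5 siRNA, against 5.93, 6.07, 6.01 and 6.97 with scrambled siRNA (log2 -0.66, SE 0.22, limma adjusted p = 0.130). The probe was detected on 2 of 4 Ypel5 siRNA arrays and 4 of 4 scrambled arrays, so it passed the filter through the scrambled group. Its sign is given only as description. Without scrambled replicate 4, which stood far above the rest, the difference was log2 -0.42 (limma adjusted p = 0.0561). Without background correction it was log2 -0.19. The remaining cytosolic and nuclear members had these differences. Dnajb6, an inhibitor of protein aggregation, was at log2 0.01 (95% interval -0.12 to 0.14), the ribosome-associated Dnajc2 at log2 0.02 (-0.11 to 0.14), Dnaja2 at log2 0.02 (-0.20 to 0.23), the splicing-linked Dnajc8 at log2 -0.01 (-0.19 to 0.16) and Dnajc17, also linked to splicing, at log2 0.17 (-0.17 to 0.50).

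Dnajc3 encodes p58IPK, a lumenal ER co-chaperone of the HSP70 protein BiP that is also known to restrain the stress kinase PERK. Its deposited intensity was 690, 607, 489 and 598 with Ypel5 siRNA, against 608, 604, 549 and 622 with scrambled siRNA, and these ranges overlapped. The means did not show a fall, at 596 ± 82.4 with Ypel5 siRNA and 596 ± 32.2 with scrambled siRNA (SD, n = 4 each), so the lower level appears only after scaling arrays whose median intensity differed between the groups. After background correction and quantile normalization the log2 values were 8.66, 8.74, 8.45 and 8.53 with Ypel5 siRNA, against 8.92, 8.88, 8.88 and 8.94 with scrambled siRNA, without overlap. The mean was 8.59 ± 0.13 with Ypel5 siRNA and 8.91 ± 0.027 with scrambled siRNA (SD, n = 4 each), so that Dnajc3 fell by 0.31 on the log2 scale (SE 0.068, limma adjusted p = 0.0405). The call was kept in 9 of 22 alternatives and, of the 8 that left out 1 array, only without Ypel5 siRNA replicate 2 (limma adjusted p between 0.0392 and 0.0924 over the 8), and with a common median per array the difference was log2 -0.23 (limma adjusted p = 0.260).

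None of the other ER members passed. Dnajc16, a membrane-anchored ER protein, read 9.40, 9.36, 9.46 and 9.49 with Ypel5 siRNA, against 9.71, 9.57, 9.69 and 9.63 with scrambled siRNA (log2 -0.22, SE 0.052, limma adjusted p = 0.0508). The groups did not overlap on this scale, and the value lay just beyond the threshold. The mean deposited intensity was higher with Ypel5 siRNA, at 922 ± 96.6, than with scrambled siRNA, at 896 ± 35.2 (SD, n = 4 each). Dnajb9, the BiP co-chaperone ERdj4, read 9.26, 9.31, 9.26 and 9.53 with Ypel5 siRNA, against 9.22, 9.20, 9.21 and 9.08 with scrambled siRNA (log2 0.16, SE 0.073, limma adjusted p = 0.253). Dnajb12, an ER membrane protein whose J domain faces the cytosol and serves the removal of misfolded membrane proteins, read 8.30, 8.35, 8.37 and 8.36 with Ypel5 siRNA, against 8.29, 8.17, 8.26 and 8.22 with scrambled siRNA (log2 0.11, SE 0.046, limma adjusted p = 0.208). In both Dnajb genes every Ypel5 siRNA array was narrowly above every scrambled array. Without Ypel5 siRNA replicate 4, the highest, Dnajb9 was at log2 0.09, and without background correction Dnajb12 was at log2 0.07. The disulfide reductase Dnajc10 was at log2 0.02 (95% interval -0.11 to 0.15), Dnajc14 at log2 -0.27 (-0.68 to 0.13) and Dnajc18 at log2 -0.07 (-0.49 to 0.35). The probe of Dnajc14 was detected on 2 of 4 Ypel5 siRNA and 4 of 4 scrambled arrays. It passed the filter through the scrambled group, and its sign is given only as description. Of the 7 ER members, 3 were above 0 and 4, Dnajc14 among them, below. With a common median per array, where the median of all genes was log2 0.04, 4 were above and 3 below.

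**Figure D2:**
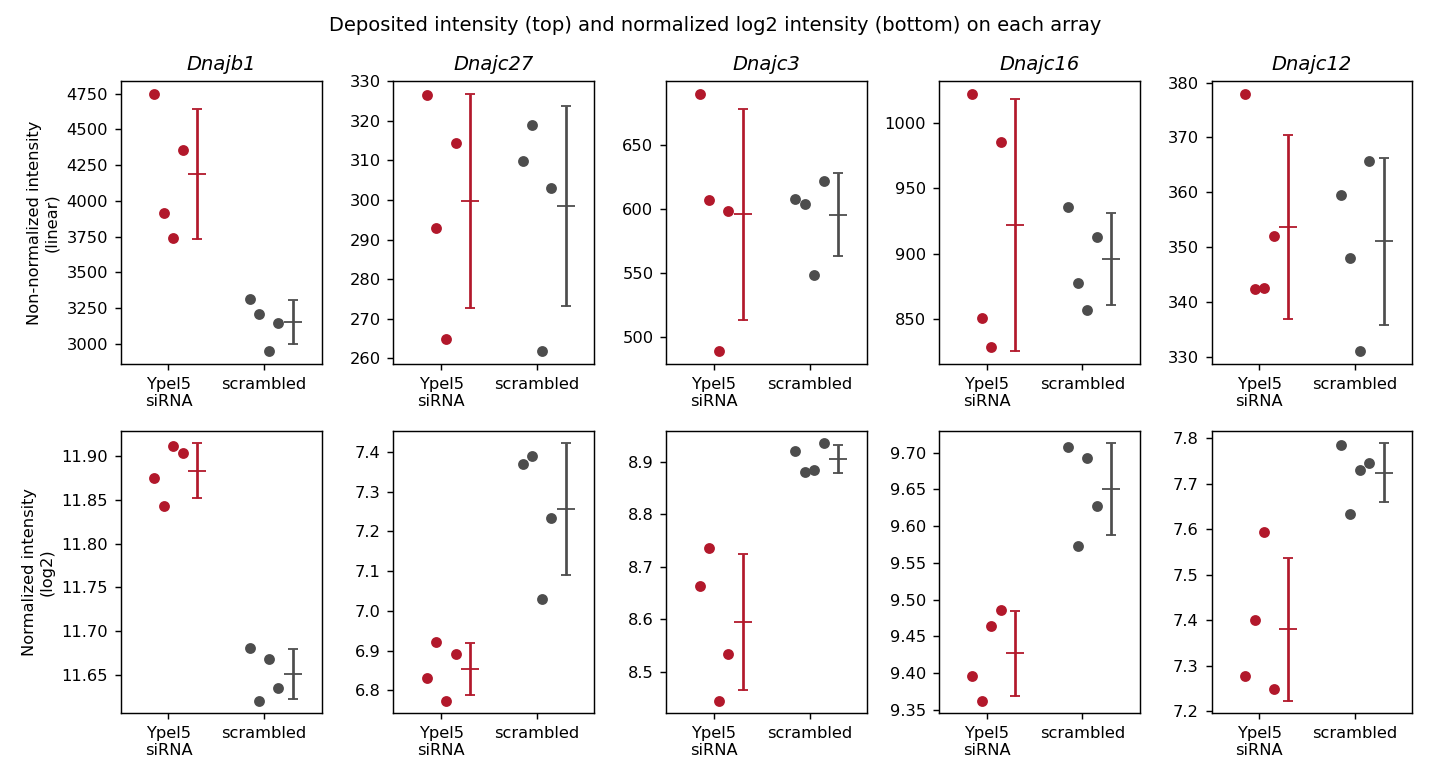
Deposited intensity (top, linear) and normalized log2 intensity (bottom) on each of the 4 Ypel5 siRNA and 4 scrambled arrays for the 5 DnaJ genes with the smallest p, with group mean and SD as bars. The axes do not start at 0. Dnajb1 is separated in both rows (3742 to 4748 with Ypel5 siRNA and 2951 to 3316 with scrambled siRNA before normalization), whereas Dnajc27, Dnajc3, Dnajc16 and Dnajc12 overlap in the top row and separate in the bottom row. The top row is not adjusted for the higher median intensity of the Ypel5 siRNA arrays.

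Dnajc27 encodes a small Rab-like GTPase with a J domain at its end. The deposited intensities, 327, 293, 265 and 315 with Ypel5 siRNA and 310, 319, 262 and 303 with scrambled siRNA, overlapped, and their means did not show the fall (299.7 ± 27.1 with Ypel5 siRNA and 298 ± 25.2 with scrambled siRNA, SD, n = 4 each). The log2 values were 6.83, 6.92, 6.77 and 6.89 with Ypel5 siRNA, against 7.37, 7.39, 7.03 and 7.23 with scrambled siRNA, so the groups were apart and the scrambled arrays spread more. Dnajc27 fell by 0.40 on the log2 scale (6.85 ± 0.065 with Ypel5 siRNA and 7.26 ± 0.17 with scrambled siRNA, SD, n = 4 each, SE 0.084, limma adjusted p = 0.0353). Without background correction the fall was 0.18 (limma adjusted p = 0.0418), less than the 0.22 of Dnajc3 under that setting. The call was kept in 8 of 22 alternatives and in 1 of 8 that left out 1 array, the one without scrambled replicate 3 (limma adjusted p = 0.0165, and up to 0.0868 without another array).

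Dnajc12, whose human protein binds the aromatic amino acid hydroxylases, read 7.28, 7.40, 7.59 and 7.25 with Ypel5 siRNA, against 7.79, 7.63, 7.73 and 7.75 with scrambled siRNA (log2 -0.34, SE 0.081, limma adjusted p = 0.0516). The groups were separated by the gap between Ypel5 siRNA replicate 3 and scrambled replicate 2, while the mean deposited intensity was 354 ± 16.8 with Ypel5 siRNA and 351 ± 15.2 with scrambled siRNA (SD, n = 4 each). Without background correction both Dnajc12 (log2 -0.18, limma adjusted p = 0.0434) and Dnajc16 (log2 -0.18, limma adjusted p = 0.0330) passed, which gave 4 lower members in place of 2. Over all 8257 genes tested, the lower calls then numbered 297 in place of 161. Dnajc4, which was assigned to no location here, was at log2 -0.08 (95% interval -0.25 to 0.10). Dnajc5, the cysteine string protein of secretory vesicles, was at log2 -0.0026 (-0.16 to 0.16).

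In mitochondria none of 5 members passed, and 4 of 5 were below 0 (3 of 5 with a common median per array). Dnaja3, the co-chaperone of the matrix HSP70, was the exception. It read 12.54, 12.46, 12.44 and 12.38 with Ypel5 siRNA, against 12.30, 12.37, 12.32 and 12.27 with scrambled siRNA, without overlap (log2 0.14, SE 0.051, limma adjusted p = 0.148). Dnajc11, a mitochondrial membrane protein linked to cristae, read 5.65, 5.60, 5.58 and 5.40 with Ypel5 siRNA, against 6.21, 5.73, 5.83 and 6.53 with scrambled siRNA (log2 -0.52, SE 0.17, limma adjusted p = 0.120). The groups did not overlap, but the probe was near background, detected on 3 of 4 Ypel5 siRNA and 4 of 4 scrambled arrays, and without background correction the difference was log2 -0.14. Dnajc19, a part of the motor that imports proteins into the matrix, read 13.26, 13.26, 13.16 and 13.15 with Ypel5 siRNA, against 13.44, 13.22, 13.29 and 13.30 with scrambled siRNA (log2 -0.11, SE 0.061, limma adjusted p = 0.363), and replicates 1 and 2 of the Ypel5 siRNA group lay inside the scrambled range. Its relative Dnajc15 was at log2 -0.08 (95% interval -0.19 to 0.03) and Dnajc30 at log2 -0.04 (-0.18 to 0.11).

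**Figure D3:**
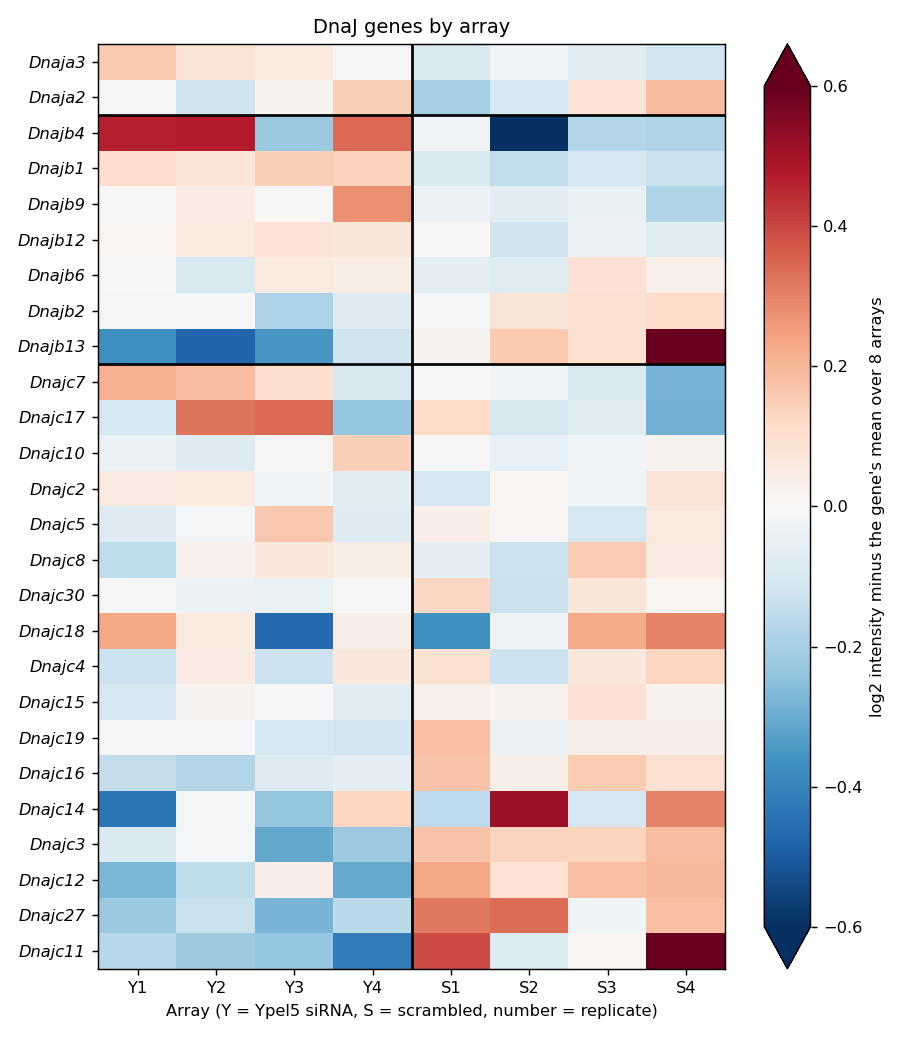
Log2 intensity of each of the 26 DnaJ genes on each array minus the gene's mean over the 8 arrays, with Ypel5 siRNA arrays left and scrambled arrays right of the line and the classes separated by horizontal lines. Colours saturate at 0.6, which scrambled replicate 4 exceeds for Dnajb13 (6.97) and Dnajc11 (6.53) and scrambled replicate 2 for Dnajb4 (5.24). Dnajb1 lies above its mean on all 4 Ypel5 siRNA arrays and below it on all 4 scrambled arrays.

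Of the 26 genes 11 were read by several probes, and in 7 a dimmer probe also passed the detection filter. Its difference came close to that of the brightest probe for Dnaja3 (log2 0.14 for both). In Dnajc16 the dimmer probe was at log2 -0.52 (SE 0.19, limma adjusted p over all kept probes = 0.190). It was detected on 1 of 4 Ypel5 siRNA and 4 of 4 scrambled arrays, so it passed the filter through the scrambled group, and its sign does not bear on the brightest probe's. For Dnajc19 the signs differed, with log2 -0.11 for the brightest and log2 0.14 for the dimmer probe (SE 0.13). Small differences of opposite sign were also seen for Dnajb6 (log2 0.01 and -0.08) and Dnajc2 (log2 0.02 and -0.02). The 3 genes that passed the test had 1 probe each, so no other probe reads them.

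**Figure D4:**
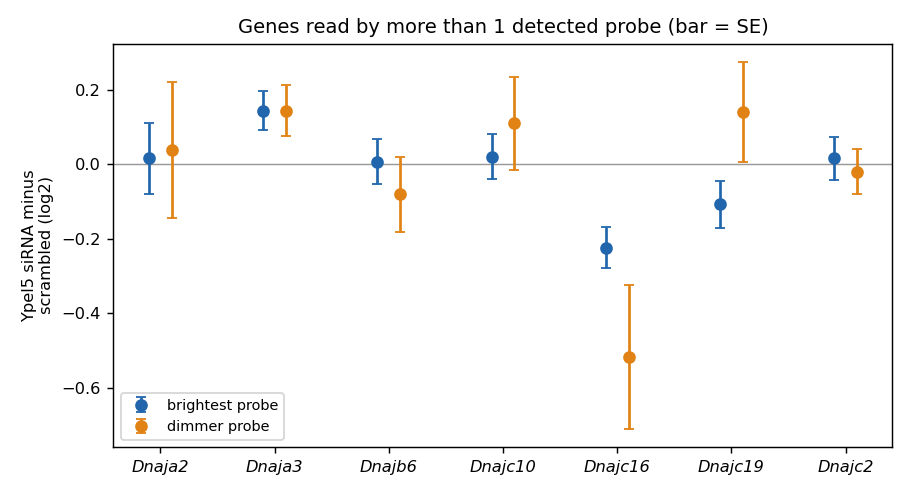
Ypel5 siRNA minus scrambled difference (log2 intensity, y axis, bar = SE) of the brightest probe and of a dimmer detected probe for the 7 DnaJ genes that have both. Both probes of Dnaja3 lie at 0.14, and those of Dnajc19 differ in sign. The dimmer probe of Dnajc16 was detected on 1 of 4 Ypel5 siRNA arrays.

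The 11 genes that did not pass the detection filter give no value for a difference. Dnaja1, a cytosolic and farnesylated member, was detected on 1 of 8 arrays by its brighter probe and on 0 by the other. Dnajb3, Dnajb5, Dnajb7, Dnajb8, Dnajc1, Dnajc5b, Dnajc5g, Dnajc6, Dnajc9 and Dnajc28 were detected on 0 of 8 arrays by any probe, 10 genes in all. Among them are the neuronal clathrin-uncoating co-chaperone Dnajc6 and the histone chaperone Dnajc9.

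Of 50 measured genes for chaperones that work with DnaJ proteins, their regulators and stress targets, 3 passed the test, or 6%, near the 4.83% of all genes. None of 7 measured genes of the HSP70 family passed in either direction (14 on the array), and their median was log2 0.09. The constitutive cytosolic Hspa8 was at log2 0.09 (SE 0.065, limma adjusted p = 0.507), the mitochondrial Hspa9 at log2 0.03 (SE 0.055, limma adjusted p = 0.784) and the ER protein gene Hspa5, which encodes BiP, at log2 0.11 (SE 0.18, limma adjusted p = 0.779). The heat-inducible Hspa1a was detected on 0 of 8 arrays. Of 8 measured nucleotide exchange factors, which recycle HSP70, 0 passed (median log2 0.03), and of 5 other genes with a J domain 0 passed (median log2 -0.09).

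Of 11 measured genes of HSP90 and its co-chaperones, 0 rose and 1 fell (median log2 0.06), against 2.88% and 1.95% of all genes. With a trended and robust variance 1 rose and 1 fell, where 436 of all 8257 genes tested rose and 348 fell. The one that fell was Fkbp4, an immunophilin of steroid receptor complexes, which read 13.58 ± 0.047 with Ypel5 siRNA and 13.81 ± 0.014 with scrambled siRNA (SD, n = 4 each, log2 -0.22, SE 0.044, limma adjusted p = 0.0276). Fkbp4 is also in the list of other heat shock factor targets, where 0 of 11 measured rose and 1 fell, although 9 of 11 were above 0 (median log2 0.11, against 0.001 over all genes tested). With a common median per array that list had 7 of 11 above 0 and a median of log2 0.02, below the log2 0.04 of all genes under that setting. Among the heat shock factors and their regulators, Hsbp1, a binding protein of heat shock factor, fell by 0.30 (10.41 ± 0.069 with Ypel5 siRNA and 10.71 ± 0.11 with scrambled siRNA, SD, n = 4 each, SE 0.068, limma adjusted p = 0.0447). Hsf1 was at log2 -0.05 (SE 0.052, limma adjusted p = 0.609). Fkbp4 and Hsbp1 kept their calls in 10 and 9 of 22 alternatives.

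Of 15 measured targets of the ER unfolded protein response, a list to which Dnajc3 would also belong, 0 rose and 1 fell. Over all genes 2.88% rose and 1.95% fell. Of the 15 targets 12 were below 0, with a median of log2 -0.15 against 0.001 over all genes tested, and 13 of 15 were below 0 with a common median per array. The gene that fell was Creld2, induced by ER stress, at 12.33 ± 0.11 with Ypel5 siRNA and 12.64 ± 0.056 with scrambled siRNA (SD, n = 4 each, log2 -0.31, SE 0.066, limma adjusted p = 0.0371). Its call was kept in 9 of 22 alternatives. At an unadjusted p under 0.05 there were 8 of 15, 7 lower and 1 higher, against 21.5% of all genes in either direction. With a trended and robust variance 4 of the 15 fell, while over all 8257 genes tested 348 fell in place of 161. This list was chosen with earlier results of these data known, and Dnajb9, also a target of this response, lay on the other side of 0.

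**Figure D5:**
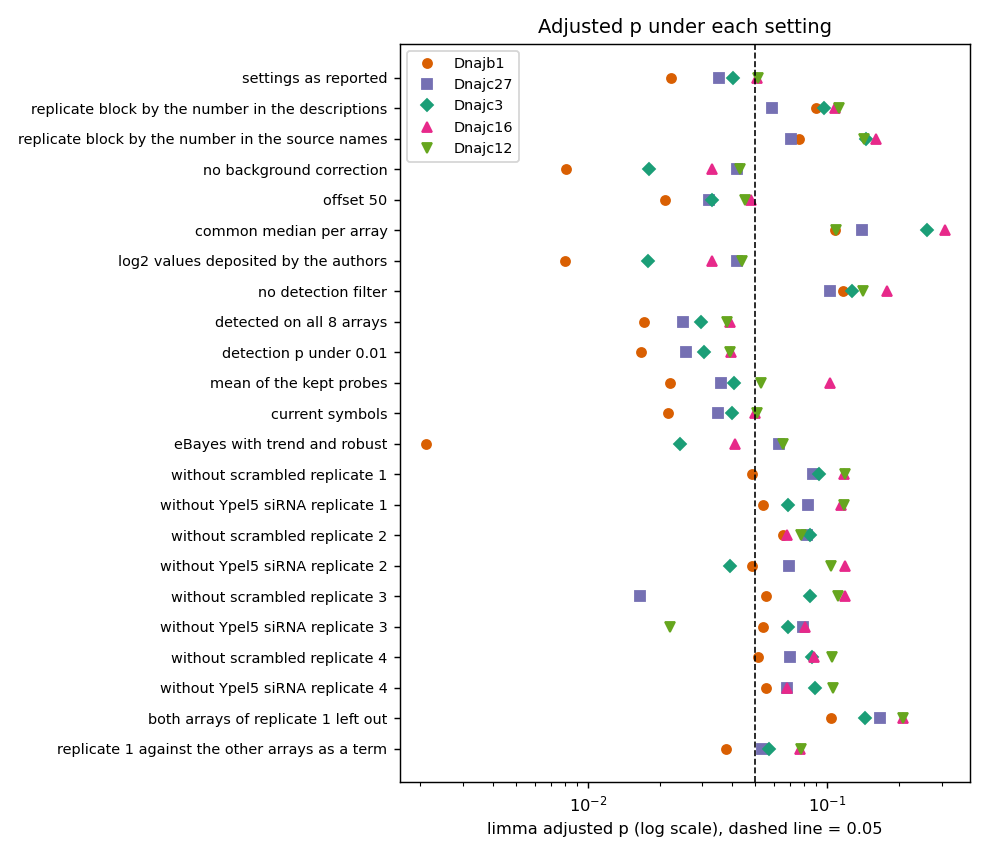
Limma adjusted p (x axis, log scale) of the 5 DnaJ genes with the smallest p under the settings reported and under each of 22 alternatives (y axis), with the threshold of 0.05 dashed. Without background correction all 5 lie left of the line, and with a replicate block, a common median per array, no detection filter or both arrays of replicate 1 left out all 5 lie right of it.

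Both arrays of replicate 1 had detection p-values on a coarser scale (101 levels) than the other 6 (749 to 762 levels). Left out together, they ended the calls of Dnajb1 (log2 0.25, limma adjusted p = 0.104), Dnajc27 (log2 -0.35, limma adjusted p = 0.166) and Dnajc3 (log2 -0.33, limma adjusted p = 0.144) in a comparison of 3 against 3 arrays. With replicate 1 against the other arrays as a term, Dnajb1 passed (limma adjusted p = 0.0376), while Dnajc27 (0.0534) and Dnajc3 (0.0573) lay just beyond the threshold. Under all 22 alternatives the differences of the 5 DnaJ genes with the smallest p kept their sign. In the plot of adjusted p by setting their calls lay on either side of the threshold.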

How the data were processed

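Bead arrays were hybridised with biotin-labelled cRNA of total RNA, per the labels' protocols. The non-normalized table deposited by the authors holds, per its headers, a linear intensity and a detection p-value for each probe on each array. The other deposited tables hold log2 intensities normalized by the authors, identical in both, and the submitters' processing notes name RMA without a version. The array's genome build was not given in the sources used here.

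The neqc function (limma 3.58.1, R 4.3.3) subtracted background by normexp, with controls inferred from detection p, added an offset of 16 and quantile normalized. Genes were kept with the name in the file, represented by the probe brightest on average, and tested if detected (p under 0.05) on at least 4 arrays. The groups were compared with lmFit and eBayes, two-sided, without a block, Benjamini-Hochberg adjusted over 8257 genes. The fit was tested on simulated data. Confidence intervals are 95% and come from the moderated fit. Replicate numbers are those of the sample descriptions.

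Every DnaJ gene past the threshold and those with the smallest p, up to 14, are given array by array. Of the partner lists, genes past the threshold and Hspa1a, Hspa1b, Hspa5, Hspa8, Hspa9 and Hsf1 were to be named; of these, Hspa1b was not analysed here. The members and lists were chosen with earlier results of these data known. Alternatives changed the block, background correction, offset, normalization, filter, probe choice, gene names, variance model and arrays; leaving out both arrays of replicate 1, and replicate 1 as a term, were added after seeing the data.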

Additional observations from a re-analysis of the deposited data

Results flagged for a closer look

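In 3 of 66 groups of 4 arrays, 1 array stood far from the others by Dixon's test at the 95% level, and chance alone marks about 1 in 20 groups. For Dnajb13, scrambled replicate 4 read 6.97 on the log2 scale, against 5.93 to 6.07 on the other scrambled arrays. Without it the Ypel5 siRNA minus scrambled difference was log2 -0.42 (limma adjusted p = 0.0561). For Dnajc15, scrambled replicate 3 read 12.46, against 12.39 to 12.40 on the other scrambled arrays, and without it the difference was log2 -0.06 (limma adjusted p = 0.590). For Dnajc8, Ypel5 siRNA replicate 1 read 9.07, against 9.24 to 9.28 on the other Ypel5 siRNA arrays, and without it the difference was log2 0.04 (limma adjusted p = 0.832). These genes did not pass the test with or without these arrays.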

How the results depend on the processing

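Of the 22 alternatives, none turned the sign of Dnajb1, Dnajc27 or Dnajc3. As reported, 1 DnaJ gene rose, 2 fell, 11 had groups that did not overlap and the median was log2 -0.02. The fall count was 4 (rise 1) without background correction, with an offset of 50, with the log2 values deposited by the authors, with detection on all 8 arrays and with a detection p under 0.01. It was 0 (rise 0) with a common median per array (6 without overlap, median log2 0.0043), without a detection filter and with both arrays of replicate 1 left out, and 0 (rise 1) with replicate 1 as a term. Leaving out 1 array gave 0 to 1 rises, 0 to 1 falls, 11 to 14 without overlap and medians of log2 -0.0707 to 0.0108. With a replicate block, 0 rose and 0 fell, whether the pairing followed the descriptions or the source names. Deviations of arrays with the same number correlated at -0.0018 to 0.18, and 3 of 8 arrays correlated best with their own number, so the numbers were not taken to pair the arrays. With 4 arrays a group this check cannot exclude pairing, and the highest correlation of any 2 arrays across the groups was that of replicate 4. Calls over all genes numbered 399 as reported, 111 and 143 with those blocks, 681 without background correction and with the deposited values, 228 with a common median, 145 without a filter, 784 with a trended and robust variance, 186 to 274 without 1 array and 69 without both arrays of replicate 1. Lower calls over all genes numbered 161 as reported and 297 without background correction or with the deposited values. They numbered 194 with an offset of 50, 219 of 7461 genes with detection on all 8 arrays and 224 of 7487 with a detection p under 0.01. The difference in median array intensity was 15.0 to 25.8 without 1 array, the largest without Ypel5 siRNA replicate 3 (exact permutation p = 0.0286). Of the 23 DnaJ genes that did not pass, 10 changed sign under some alternative. The cause of these changes was not tested. The 4 arrays of each group and probes near background, such as those of Dnajb4, Dnajb13, Dnajc11 and Dnajc14, limit what could be detected.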
